A study of Caenorhabditis elegans with 2 samples.

Results

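The 7 Sm core protein genes of Caenorhabditis elegans, snr-1 to snr-7, were examined for binding of LIN-54, out of 19973 nuclear protein-coding genes of the annotation. They were taken by gene name from a list chosen with earlier results of these data known. All 7 names matched the Ensembl annotation of WBcel235. The data are chromatin immunoprecipitation and sequencing (ChIP-seq) of whole young adult worms, 65 hours of age and of mixed sex, synchronised as starved L1 larvae, with 2 biological replicates in 1 group. The strain, OP743, has an unc-119(tm4063) background that the transgene wgIs743 complements. That transgene is a fosmid with lin-54 joined to TY1, EGFP and 3xFLAG, and an anti-GFP antibody was used. The labels name no deletion of the chromosomal lin-54 gene, so untagged protein may be present and would not be precipitated directly. Whole worms mix germline and somatic nuclei, so a value does not show in which cells LIN-54 was bound.

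The 7 Sm proteins assemble into a ring around a uridine-rich site of the spliceosomal small nuclear RNAs (snRNAs), and this ring is the common core of the small nuclear ribonucleoprotein particles (snRNPs) that remove introns. In C. elegans the ring is also carried by the spliced leader RNAs, which are joined to the 5′ ends of many mRNAs by trans-splicing. LIN-54 is a DNA-binding subunit of the DREAM complex and recognises an element called the CHR (cell cycle genes homology region). The partners EFL-1 and DPL-1 recognise the E2F site.

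A gene was counted as bound when a summit of the authors' list of 3449 reproducible peaks (the irreproducible discovery rate, or IDR, list) lay from 1000 bp upstream to 300 bp downstream of any of its 5′ ends. Per gene, the signal below is the authors' own value for the strongest region in that window. The labels and headers do not state its formula, so it ranks regions within a list, and the pooled and replicate lists are not on a common scale. LIN-54 peaks lay at 5 of the 7 Sm genes (71.4%), against 14.3% of all protein-coding genes. The bound genes were snr-2, encoding Sm B, snr-3 (Sm D1), snr-4 (Sm D2), snr-1 (Sm D3) and snr-6 (Sm E). The genes of the remaining ring members, snr-5 (Sm F) and snr-7 (Sm G), were not in the IDR list. No set test was made on these counts.

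The reference sequence around a summit is shown for snr-1, snr-3 and snr-4, together with the strongest weaker region of snr-5, to show where the CHR and E2F letters lie. Each line is the 101 bases centred on the summit, from the plus strand of the RefSeq genome of WBcel235. The CHR element was searched as TTTGAA or TTCGAA on both strands. The E2F site was searched, also on both strands, as the sequence TTCCCGC, the variant TTCGCGC, the variant TTGCCGC and the variant TTGGCGC. Capitals mark a match. The positions are chrIV:17087607-17087707 for snr-1, chrII:6489949-6490049 for snr-3, chrV:11980046-11980146 and chrV:11980256-11980356 for the stronger and the weaker peak of snr-4, and chrIII:7861164-7861264 for snr-5.
snr-1: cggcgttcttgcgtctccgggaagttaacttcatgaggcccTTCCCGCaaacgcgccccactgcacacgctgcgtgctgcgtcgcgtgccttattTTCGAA
snr-3: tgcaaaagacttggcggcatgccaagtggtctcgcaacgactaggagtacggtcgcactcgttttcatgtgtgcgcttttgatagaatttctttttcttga
snr-4, stronger peak: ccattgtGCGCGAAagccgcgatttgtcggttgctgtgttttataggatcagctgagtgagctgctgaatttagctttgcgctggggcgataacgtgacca
snr-4, weaker peak: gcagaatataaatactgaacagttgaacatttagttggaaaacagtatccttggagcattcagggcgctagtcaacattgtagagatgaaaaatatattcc
snr-5, not in the IDR list: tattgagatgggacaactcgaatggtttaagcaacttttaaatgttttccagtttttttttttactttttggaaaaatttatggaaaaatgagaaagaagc
These windows and those of the other Sm genes each occurred once in the genome. Those printed overlapped no coding exon or untranslated region of a protein-coding gene. The printed snr-4 windows did overlap RNA genes, and the E2F match of the stronger peak lay within the noncoding RNA gene C52E4.14. In snr-1 the sequence TTCCCGC (IV, 17087648 to 17087654) was centred 6 bp from the summit and TTCGAA (IV, 17087702 to 17087707) 47.5 bp away, at the edge of the window. The stronger snr-4 peak held the E2F match GCGCGAA (V, 11980053 to 11980059) at -40 bp and no CHR match. The snr-3 peak, the weaker snr-4 peak and the snr-5 region held neither.

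The gene of Sm B carried the strongest LIN-54 peak of the family. The snr-2 peak (I, 13338891 to 13339182) had a signal of 895 in the pooled list, where it ranked 133, 428 in replicate 1 (rank 137) and 462 in replicate 2 (rank 125). Only 184 protein-coding genes had a stronger pooled region in their window. Its summit lay 374 bp upstream of the snr-2 5′ end in intergenic sequence, and a CHR match was centred 16.5 bp from it. The nearest values among bound genes were those of cmtr-1, a cap methyltransferase gene, at 897, and of a peak shared by emb-1, K10D2.5 and the splicing factor gene prp-19 at 880.

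The genes of the D proteins, which complete the ring together with B and the E, F and G subcomplex, were all bound, at lower levels. The strongest of the 3 was the snr-4 peak (V, 11979937 to 11980218), with a pooled signal of 541 (rank 352), 287 in replicate 1 (rank 301) and 253 in replicate 2 (rank 393). The snr-1 peak (IV, 17087547 to 17087748) had 380 (rank 591), 176 (rank 668) and 205 (rank 548) in the same order. The snr-3 peak (II, 6489909 to 6490047) had 257 (rank 1063), 119 (rank 1179) and 141 (rank 958), and was the weakest of the bound family members. The summits lay 373, 392 and 238 bp upstream of the nearest 5′ end of snr-4, snr-1 and snr-3.

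The E, F and G genes, whose products form a subcomplex before the ring closes, did not share a level. The snr-6 peak had a pooled signal of 609 (rank 274), 265 in replicate 1 (rank 348) and 344 in replicate 2 (rank 231), and its summit lay 263 bp upstream of the 5′ end. The strongest snr-7 region (I, 2726567 to 2726902) had 91.8 (rank 3737), 47.6 (rank 4117) and 39.8 (rank 5208). This was just below the IDR list, whose last peak had a pooled signal of 98.2 at rank 3449, and the summit positions in the replicates lay within 17 bp of the pooled summit. A CHR match was centred 41.5 bp from the pooled snr-7 summit.

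At snr-5 the strongest region in the window was a different one in each list. The pooled list held 3 weak regions in the window, with signals of 59.5 (rank 7001), 26.9 (rank 23827) and 53.9 (rank 8265), at -856, -383 and 147 bp from the 5′ end. The strongest region in the window had a signal of 31.7 (rank 8276) at 147 bp in replicate 1, the same summit as in the pooled list, and 30.6 (rank 8291) at -2 bp in replicate 2. The weakest pooled region, at -383 bp, had counterparts at -417 bp in replicate 1 (rank 15851) and at -389 bp in replicate 2 (rank 26191). The strongest pooled region, at -856 bp, lay nearer to the divergent gene cuc-1, a copper chaperone gene. The nearest summit to it in replicate 1 lay 171 bp farther upstream, just outside the window, with a signal of 40.5 (rank 5337), above that of the strongest region inside. In replicate 2 the nearest summit lay 49 bp away, with a signal of 23.8 (rank 13187). The value of snr-5 also depended on the window: from 500 bp upstream to 100 bp downstream the strongest pooled signal was 26.9. The pooled list includes background by its label, so these weak regions are not shown to be LIN-54 binding.

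**Figure D1:**
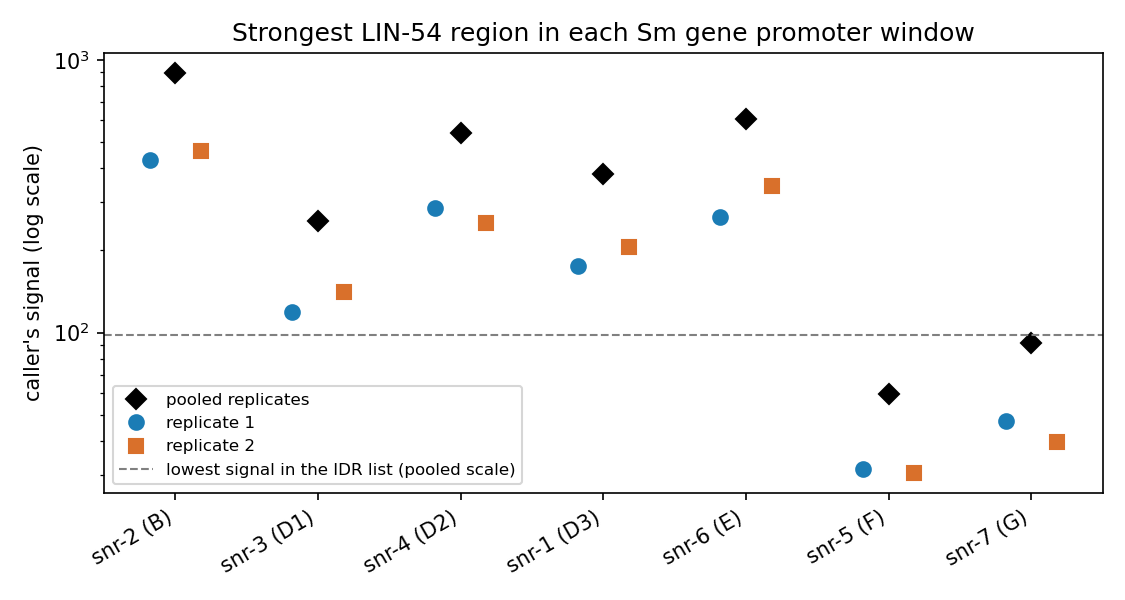
The caller's signal (log scale) of the strongest region in each Sm gene's promoter window, in the pooled list (diamonds), replicate 1 (circles) and replicate 2 (squares), with the lowest pooled signal of the IDR list, 98.2, as a dashed line. The scales of the 3 lists differ. In each of them snr-2 was highest and snr-5 lowest.

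The order of the 7 genes was nearly the same in the replicates. In both, snr-2 came first, and snr-1, snr-3, snr-7 and snr-5 followed in that order at the lower end, while snr-4 and snr-6 exchanged places: snr-4 was higher in replicate 1 and snr-6 in replicate 2. In ranks within a list, snr-4 had 301 and 393 and snr-6 348 and 231 in replicates 1 and 2, while the other neighbours kept their order in both. With 2 replicates of 1 group the spread is not measured, and there is no test of the order. The 5 bound genes ranked within the first 1179 of 30000 regions in each replicate, and snr-5 and snr-7 lay outside the first 3449 in both. Every Sm gene had a summit in the window in the pooled list and in both replicate lists, which held for 38.0% and 33.0% of all protein-coding genes. The pooled relaxed list includes background by its label, so a relaxed region alone does not show binding. Over the 7 genes the median pooled signal was 380. Over the 7591 protein-coding genes with any pooled region it was 67.5, and the remaining genes had no region. For the 5 bound genes, 93.9% to 99.1% of all other protein-coding genes had a weaker region or none, against 78.9% for snr-5 and 85.0% for snr-7.

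**Figure D2:**
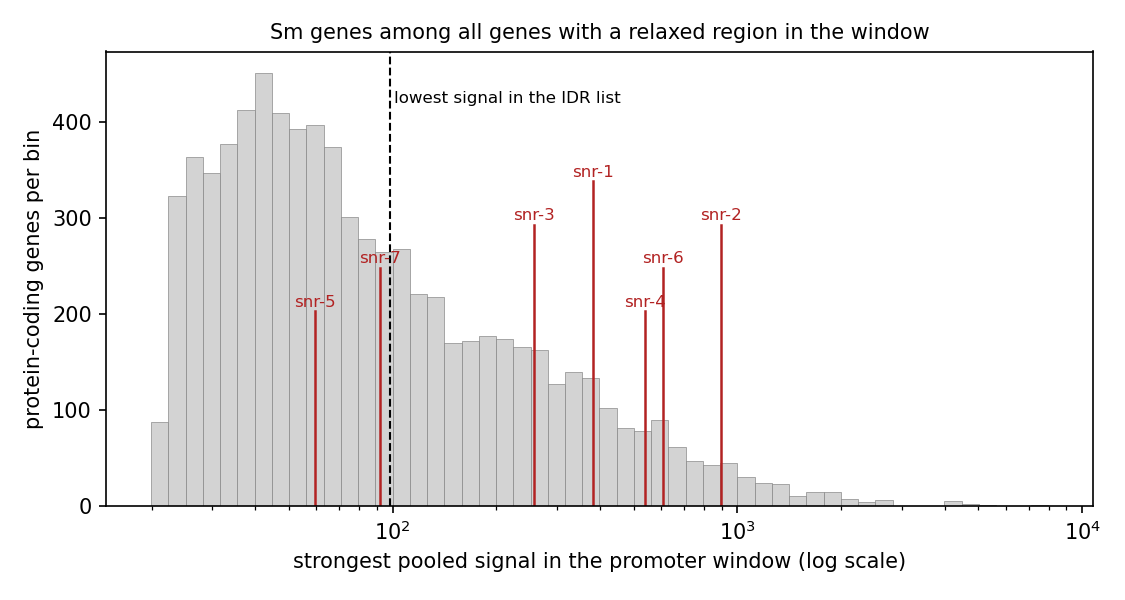
The number of protein-coding genes per bin of strongest pooled signal in the promoter window (log scale), for the 7591 genes with a relaxed region, with the Sm genes marked by red lines and the lowest signal of the IDR list dashed. The 5 bound Sm genes spread from 257 to 895, and snr-7 at 91.8 sits just left of the dashed line.

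The Sm genes mostly stood head to head with another gene, so that few of the peaks can be given to an Sm gene by position. The peak of snr-1 also lay in the window of snx-13, a sorting nexin gene, and that of snr-2 in the window of W08E3.4, annotated by RefSeq as a major sperm protein gene. The snr-3 peak was shared with rsp-5, a gene of the SR family of splicing factors, and the snr-6 peak with Y49E10.16, annotated with a lipase-type domain. At snr-1, snr-2, snr-3 and snr-6 the gap between the divergent 5′ ends was 611, 466, 404 and 880 bp. Among all promoter IDR peaks, 35.1% lay in windows of several genes. That share counts each peak once and is not a share of bound genes.

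The summits at the shared promoters lay between the divergent 5′ ends in each case. The snr-2 summit was 92 bp upstream of W08E3.4 and 374 bp upstream of snr-2, and the snr-1 summit was 219 bp upstream of snx-13 and 392 bp upstream of snr-1. The snr-3 summit was more central, 166 bp from rsp-5 and 238 bp from snr-3. At snr-6 the Sm gene was the nearer, at 263 bp, with Y49E10.16 at 617 bp. With each summit given only to the nearest 5′ end of a protein-coding gene, the count fell from 5 Sm genes to 2, snr-4 and snr-6 (28.6%). That of all protein-coding genes fell from 14.3% to 10.6%. RNA genes were left out of this rule. The stronger snr-4 summit lay 22 bp upstream of an snRNA gene and 373 bp upstream of snr-4, so snr-4 keeps it only among protein-coding genes. A peak's position does not show which of the divergent genes it serves.

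The unbound members had divergent neighbours too: Y71F9B.6, annotated with a cyclin domain, lay 290 bp from snr-7, and cuc-1 lay 1085 bp from snr-5. The snr-7 summit was 11 bp upstream of Y71F9B.6 and 279 bp upstream of snr-7. A divergent 5′ end within 1000 bp was thus present at 5 of the 7 Sm genes, against 18.7% of all protein-coding genes. Of these 5 genes 4 were bound, and of all genes with such a neighbour 35.4% were. This comparison was chosen after the positions were seen.

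**Figure D3:**
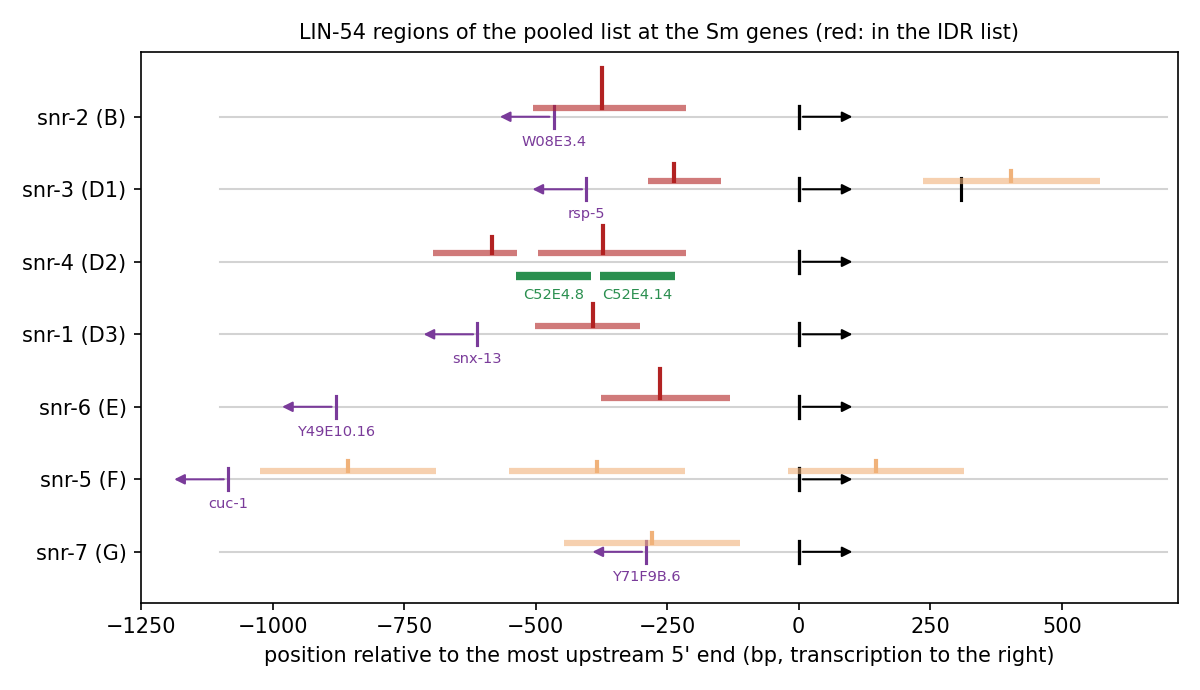
Regions of the pooled list (horizontal bars) and their summits (vertical lines, height proportional to signal) relative to the most upstream 5′ end of each Sm gene in bp, with IDR peaks in red and weaker regions in orange. Black ticks mark 5′ ends of the Sm gene, purple arrows divergent protein-coding genes and green bars RNA genes. Each bound gene other than snr-4 has its red summit between a purple and a black tick.

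The gene of Sm D2 differed from the others in carrying 2 IDR peaks. Its nearest divergent protein-coding 5′ end was 14572 bp away, and snr-5 also had none within 1000 bp. Among all bound genes, 8.99% had several IDR summits in the window. The weaker snr-4 peak (V, 11980258 to 11980419) had a pooled signal of 253 (rank 1087), 116 in replicate 1 (rank 1213) and 101 in replicate 2 (rank 1497), with its summit 583 bp upstream of the 5′ end. The summits were 210 bp apart.

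RNA genes on the opposite strand lay beneath and between them. The stronger summit fell within the noncoding RNA gene C52E4.14 (V, 11979959 to 11980101), 5 bp before its end. It also lay 22 bp upstream of an snRNA gene of 144 bp, WBGene00014291 (V, 11980118 to 11980261), which RefSeq names C52E4.8 and Ensembl T11F9.15. The weaker summit lay 45 bp beyond the end of that snRNA gene, so the pair of summits flanked it. Most spliceosomal snRNAs carry the Sm ring, but the annotation does not say which snRNA this gene encodes.

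The sequence of this snRNA gene occurred at 2 places in the genome. No label or header states how reads that match several places were treated, and their part in the presence of 2 peaks was not tested. The other copy, WBGene00014517 (V, 11478148 to 11478291), had no IDR summit within 500 bp. The strongest pooled region there had a signal of 66.6 (rank 5840), against 541 for the stronger peak beside snr-4. Without IDR summits within 200 bp of an snRNA gene, an alternative added after the data were seen, 4 Sm genes remained bound (57.1%), against 14.2% of all genes. The peak beside snr-4 cannot be told apart, by position, as one of snr-4 or of the RNA genes.

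The sequence letters of the DREAM complex were found at some of the Sm peaks. Of the 6 Sm IDR summits, 3 had a CHR match within 50 bp (snr-1, snr-2 and snr-6), against 37.7% of promoter IDR summits. An E2F match lay at 2 of the 6 (snr-1 and the stronger snr-4 peak), against 20.7%, and snr-1 was the one with both. These shares are near the background and are not a result about the Sm genes. Within 25 bp, 1 summit had a CHR match (15.1% of promoter IDR summits) and 1 an E2F match (11.6%). Within 100 bp, 5 had a CHR match (58.9%) and 2 an E2F match (25.5%). From 250 bp upstream to 50 bp downstream of a 5′ end, 6 of the 7 Sm genes had a CHR match, against 73.3% of all protein-coding genes. The gene without was snr-4. None of the 7 had an E2F match there, against 11.6% of all protein-coding genes, since both E2F matches lay farther upstream. The absence of these letters from a window says nothing of whether a factor bound there.

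The 6 IDR regions were 139 to 292 bp wide, and all promoter IDR peaks had a median width of 336 bp with quartiles at 198 and 336 bp. Of all promoter IDR peaks, 46.1% were no wider than the widest of the Sm peaks. The replicate summits lay at most 26 bp from the pooled summit, the largest shift being that of snr-3 in replicate 2. The medians over promoter IDR peaks were 6 bp in replicate 1 and 9 bp in replicate 2. The GC content of the 101 bases at the summit ranged from 35.6% at the weaker snr-4 peak to 60.4% at snr-1, around a median of 45.5% for promoter IDR peaks (quartiles 39.6% and 50.5%). The snr-5 window had 27.7%.

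Other genes of the snRNP pathway were compared with the Sm genes. Of the 45 genes matched in 6 lists, 23 were bound (51.1%), against 5 of 7 Sm genes (71.4%) and 14.3% of all genes. With each summit given to the nearest protein-coding 5′ end only, the order of the shares turned, to 16 of 45 (35.6%) against 2 of 7 Sm genes (28.6%). The LSm proteins, which form a related ring on U6 snRNA and in mRNA decay, had 6 of 8 genes bound (75%), namely all but gut-2 and lsm-4. Their IDR signals ran from 128 to 338 with a median of 141, against 257 to 895 and a median of 541 for the bound Sm genes. Only lsm-5 and lsm-7 of the bound LSm genes reached the Sm range. The strongest were lsm-5 (338, rank 716), lsm-7 (315, rank 788) and lsm-1 (149, rank 2074), and the lsm-7 and lsm-1 peaks also lay in the windows of dnc-1 and rps-9. No test was made between these lists, and the share over all protein-coding genes, 14.3%, applies beside each list below.

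Of the 4 genes that act in assembling the ring, 2 were bound. The smn-1 gene, encoding the SMN protein that loads Sm proteins on snRNA, had a signal of 544 (rank 345) in a peak shared with klp-16. The prmt-5 gene, encoding the arginine methyltransferase that modifies Sm proteins, had 246 (rank 1119). The strongest regions of icln-1 and smi-1, at 83.6 and 46.3, were not IDR peaks.

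Proteins of individual particles formed a pair of lists. In the U1 and U2 list 2 of 12 genes had a peak (16.7%), near the 14.3% of all protein-coding genes and so not a result about this list. These were sftb-1, encoding the orthologue of the U2 subunit SF3B1, at 205, shared with R10E4.1, and rnp-2 at 165, shared with K08D10.13. In the U4/U6.U5 list 4 of 10 had one. The core splicing factor gene prp-8 had 773 (rank 173) and shared its peak with bath-42. The others were dib-1 (188, shared with nprt-1), prp-31 (152, shared with mat-1) and snrp-200 (98.4, rank 3437), the last being close to the end of the IDR list.

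Proteins of the spliced leader particle and of the SR family made up the last lists. In the first 2 of 3 were bound, sna-2 at 620, shared with T13F2.6, and sna-3 at 242, shared with rps-3. Of the SR genes, 7 of 8 were bound (87.5%), led by rsp-1 and rsp-2, which share a peak of 621, and rsp-3 (502, shared with spin-4). The rsp-5 value of 257 is that of the snr-3 peak, so this gene and snr-3 are not independent. All lists include peaks shared with neighbours.

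**Figure D4:**
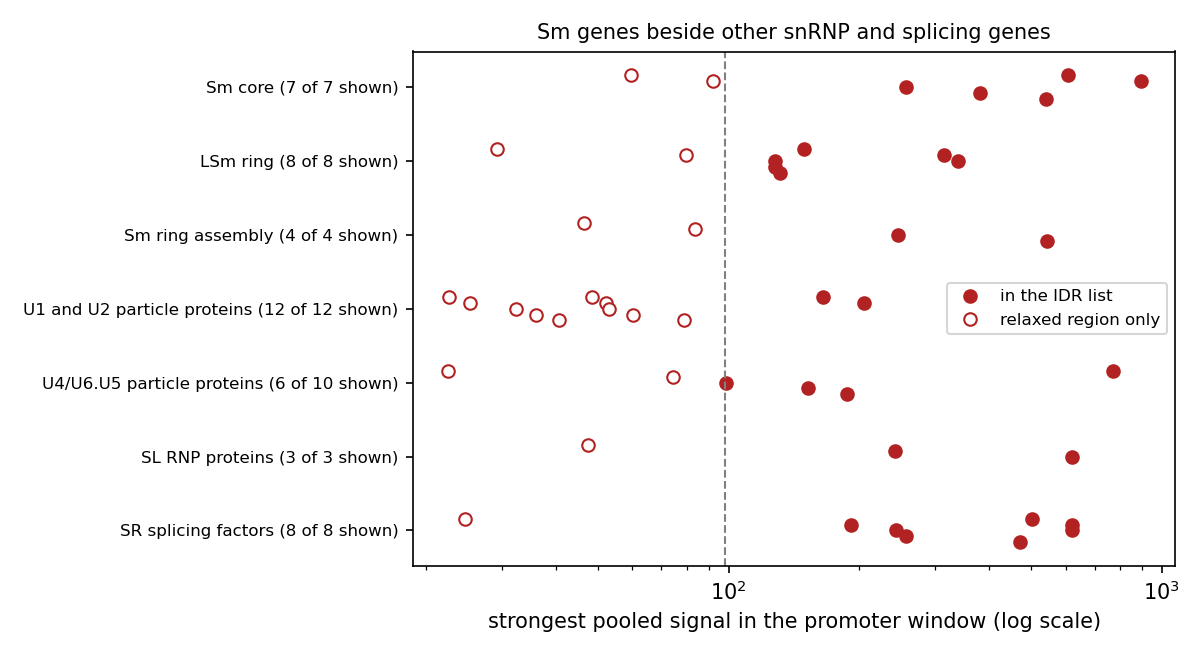
The strongest pooled signal in the promoter window (log scale) for each Sm gene and for genes of 6 other snRNP and splicing lists, filled where the region is in the IDR list. The dashed line is the lowest signal of the IDR list, 98.2. The filled points of the Sm genes lie between 257 and 895, and 10 of the 12 U1 and U2 genes lie left of the dashed line.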

How the data were processed

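The authors deposited 4 region lists on ce11, per the file headers: lists of 30000 relaxed regions (replicate 1, replicate 2 and their pool), made from the alignments and a control file, and the 3449 that passed the IDR procedure. The pooled relaxed list is labelled as peaks and background, the input for IDR, so a region in it need not be a site of binding. Each region carries a signal value from the authors' caller and a summit offset. No source used here names the caller, the aligner or the IDR threshold, and read depth is unknown.

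Summits were computed from the region start plus the offset and read 1-based. Windows came from 5′ ends of protein-coding transcripts in Ensembl release 115 (WBcel235, the same build as ce11). Peaks between divergent genes count for both. Python 3.11.15, numpy 2.4.6, pandas 2.3.3 and matplotlib 3.10.9 were used, and the window assignment was tested on simulated data. No hypothesis test was made, since the 2 replicates form 1 group. Counts stand beside the same count over all protein-coding genes.

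Members, lists, motifs and alternatives were chosen with earlier results of these data known. Of 47 symbols in the 6 other lists, sftb-3 and sftb-5 matched no gene. Named genes are the members, genes that share their peaks, the 3 strongest or, where 5 or fewer were bound, all bound genes of each list, and those next to the strongest member in signal. The unbound gut-2, lsm-4, icln-1 and smi-1 were named after their values were seen. The sequence at the snr-6 peak is not reported here.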

Additional observations from a re-analysis of the deposited data

How the results depend on the processing

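The same 5 Sm genes were bound with the strongest 1724 IDR peaks. They were also bound with windows of 500 bp up and 100 bp down or 2000 bp up and 500 bp down. The same held with region overlap of 1 bp in place of the summit. With either replicate left out, the IDR list was replaced by the other replicate's relaxed list, cut at the size of the IDR list. The same 5 genes had a summit in each cut list (5 and 5), but this does not repeat the IDR call. The ranks and summit positions given above already fixed that these 5 genes would be kept. So these alternatives give them no further support. All genes in these alternatives numbered, in the same order, 1777, 2299, 3481, 2978 and 2753 to 2865, from 2859. With each summit given to the nearest protein-coding 5′ end only, 2 of 7 Sm genes (28.6%) and 16 of the 45 other list genes (35.6%) were bound. This turned the order of the shares. Of 45 genes in the other lists, 16 to 27 were bound in these alternatives, from 23. Summits with a CHR match numbered 1 within 25 bp and 5 within 100 bp, from 3, and those with an E2F match 1 within 25 bp, from 2, because the sequence searched is shorter or longer. The pooled signals of the strongest region were the same under the other windows except for snr-5, at 26.9 with the narrow window. The percentile of snr-7 was 82.6 without replicate 1 and 86.3 without replicate 2, from 87.5, and that of snr-5 was 72.4 without either, from 76.7. No paired analysis was possible because there is 1 group. Unknown read depth limits what the weak regions of snr-5 and snr-7 can show.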
